A study of Mus musculus with 48 samples.

Results

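9430053O09Rik, D030068K23Rik, Gm37120 and Gm29681 are 4 long non-coding RNA genes of the mouse whose counts differed strongly between Setd1b cKO and Control libraries of the hippocampal CA region. They were picked by symbol for those differences, 2 for falling and 2 for rising, out of 48709 genes listed in neuron RNA and 47729 listed in whole CA RNA. All 4 are listed in both materials, among 23213 genes with RIKEN (ending in Rik) or Gm symbols found in both. All mice were C57BL/6J adults of 4 to 6 months, per the labels. RNA was sequenced from CA neurons (3 libraries labelled Setd1b cKO, a conditional knockout, and 3 labelled Control) and from whole CA tissue (6 and 6). Peaks of 4 histone marks came from sorted nuclei of CA neurons, with 4 libraries of each genotype for H3K4me3 and H3K4me1. H3K27ac had 4 labelled cKO and 3 labelled Control, and H3K9ac had 3 and 4. The driver of Cre, the allele carried by the Control mice and whether each library came from 1 animal are not given in the sources used here, so p-values measure the spread between these libraries.

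Setd1b encodes a catalytic subunit of a COMPASS complex, which adds methyl groups to lysine 4 of histone H3. Trimethylation (H3K4me3) marks active start sites, monomethylation (H3K4me1) marks enhancers and the flanks of start sites, and acetylation at lysine 27 or 9 (H3K27ac, H3K9ac) marks active promoters and enhancers. Long non-coding RNAs are transcribed and often spliced like messenger RNAs but are not known to be translated, many are kept in the nucleus, and RIKEN and Gm symbols are placeholders for genes without a named function. No function is given here for any of the 4.

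The promoter sequences are shown because the histone data of the study bear on the starts. They are RefSeq sequences of build GRCm38.p6, 300 bases each, from 250 before to 50 after the outermost annotated start, written in the direction of transcription. Capitals mark every CG pair and every match, on either strand, to TATAAA (the TATA box), CCAAT (the CCAAT box) or GGGCGG (the GC box, which itself holds a CG pair). The first is chr16:77422834-77423133 on the minus strand, the second chr8:109074972-109075271 on the plus strand, the third chr1:132102347-132102646 on the plus strand and the fourth chr5:131414669-131414968 on the minus strand. The fifth, chr8:109249696-109249995 on the minus strand, belongs to 4922502B01Rik, a long non-coding RNA gene that starts inside D030068K23Rik and whose start carries peaks.
9430053O09Rik: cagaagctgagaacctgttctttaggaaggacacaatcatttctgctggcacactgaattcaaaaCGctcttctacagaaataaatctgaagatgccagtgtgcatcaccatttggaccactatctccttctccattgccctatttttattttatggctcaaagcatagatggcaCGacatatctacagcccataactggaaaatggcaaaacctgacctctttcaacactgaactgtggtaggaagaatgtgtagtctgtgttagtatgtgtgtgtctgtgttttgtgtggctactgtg
D030068K23Rik: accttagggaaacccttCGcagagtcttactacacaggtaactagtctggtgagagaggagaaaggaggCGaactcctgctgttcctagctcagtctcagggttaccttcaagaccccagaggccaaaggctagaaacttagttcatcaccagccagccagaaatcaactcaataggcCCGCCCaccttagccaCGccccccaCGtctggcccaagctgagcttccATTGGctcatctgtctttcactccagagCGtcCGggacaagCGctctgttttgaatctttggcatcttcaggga
Gm37120: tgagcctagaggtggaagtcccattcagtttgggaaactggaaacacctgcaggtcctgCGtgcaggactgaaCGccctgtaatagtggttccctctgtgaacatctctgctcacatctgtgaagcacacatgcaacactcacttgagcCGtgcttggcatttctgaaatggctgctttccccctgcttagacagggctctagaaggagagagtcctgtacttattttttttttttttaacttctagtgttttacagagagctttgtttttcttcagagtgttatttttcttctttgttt
Gm29681: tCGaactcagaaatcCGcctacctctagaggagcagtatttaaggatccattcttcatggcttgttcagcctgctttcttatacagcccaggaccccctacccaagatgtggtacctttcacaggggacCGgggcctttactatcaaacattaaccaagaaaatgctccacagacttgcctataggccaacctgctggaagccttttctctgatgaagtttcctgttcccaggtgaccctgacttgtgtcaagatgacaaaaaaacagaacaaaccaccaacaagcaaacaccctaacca
4922502B01Rik: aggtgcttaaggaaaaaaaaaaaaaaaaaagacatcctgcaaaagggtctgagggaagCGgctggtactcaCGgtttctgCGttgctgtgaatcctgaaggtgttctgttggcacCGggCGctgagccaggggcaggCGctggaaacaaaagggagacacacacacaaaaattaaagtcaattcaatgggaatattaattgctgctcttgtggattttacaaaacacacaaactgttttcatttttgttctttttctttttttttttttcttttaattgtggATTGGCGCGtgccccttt

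The D030068K23Rik promoter was the richest of the 4 in G and C, at 53.3% with 8 CG pairs, and it alone among them held a match to CCAAT and one to GGGCGG. The 9430053O09Rik promoter had 42.0% G and C with 2 CG pairs, Gm37120 had 44.3% with 3, and Gm29681 had 47.0% with 3. None of these 3 held a match to any of the motifs in this window. The inner starts of 9430053O09Rik, not shown, differed: the promoter at position 77420382 held 1 match to TATAAA and that at 77420617 held 1 to CCAAT. The 4922502B01Rik promoter had 41.3% G and C, 8 CG pairs and 1 match to CCAAT. Over all 32851 RefSeq promoters of this length the median was 52.7% G and C with 7 CG pairs, 13.6% held TATAAA, 37.4% held CCAAT and 35.7% held GGGCGG. These matches are a description of letters and say nothing of which factors bind.

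The genes lie on 4 chromosomes. 9430053O09Rik (ENSMUSG00000102344) spans chr16:77393539-77422883 on the minus strand, 29.3 kb, and has 3 annotated starts. It lies wholly inside Mir99ahg, the host gene of a microRNA cluster, which runs on the plus strand. D030068K23Rik (ENSMUSG00000097393) spans chr8:109075222-109253639 on the plus strand, 178 kb, and overlaps 4922502B01Rik on the minus strand. Gm37120 (ENSMUSG00000103966) is the shortest, 3.77 kb at chr1:132102597-132106371 on the plus strand, 7.18 kb from Cdk18. Gm29681 (ENSMUSG00000105387) spans chr5:131391600-131414718 on the minus strand, 23.1 kb, between Galnt17 and Auts2. Whether reads were counted by strand is not given in the sources used here, so reads of 9430053O09Rik and Mir99ahg, or of D030068K23Rik and 4922502B01Rik, cannot be told apart where their exons overlap.

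The depth was 55.7 to 69.1 M counted reads per neuron RNA library and 14.9 to 20.1 M per whole CA library, with 0.00814 to 0.0144% and 3.41 to 7.05% of them on mitochondrial genes. The summed level of 5 astrocyte markers was 25.3 to 31.8 CPM (the count divided by the library's total in M counted reads) over the neuron RNA libraries and 1365 to 1694 CPM over those of whole CA, and no marker of the 8 cell type lists was at 0 in every library of a group. Summed levels of 6 neuron markers were also lower in neuron RNA, at 5829 to 6209 CPM against 11964 to 13718 CPM in whole CA. The same held for 6 interneuron markers (499 to 660 against 755 to 969 CPM). The sum of 4 dentate granule cell markers was higher in neuron RNA (115 to 179 against 29.97 to 83.1 CPM). Setd1b was not lower in the libraries labelled cKO: the log2 fold change of its whole-gene count was 0.25 in neuron RNA (SE 0.13, n = 3 and 3, edgeR adjusted p = 0.361) and 0.59 in whole CA RNA (SE 0.11, n = 6 and 6, edgeR adjusted p = 0.00415). A count over the whole gene cannot show the loss of part of it. Because the whole-gene count does not show the loss, genotypes are given as the libraries were labelled.

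9430053O09Rik had the largest fall of the 4 in neuron RNA. It stood at 6.04, 8.69 and 7.50 CPM in the 3 neuron RNA libraries labelled Control, from 366 to 540 reads each. The 3 labelled cKO held 1.52, 1.43 and 1.36 CPM, from 76 to 102 reads. The groups were far apart, and the spread was narrow among libraries labelled cKO (1.44 ± 0.0807 CPM, SD, n = 3) and wider among those labelled Control (7.41 ± 1.33 CPM, SD, n = 3). The fit gave a log2 fold change of -2.37 (SE 0.16), a level 5.18 times lower. In whole CA RNA the lowest, median and highest of the 6 libraries labelled Control were 4.03, 4.77 and 5.74 CPM, and of the 6 labelled cKO 0.590, 1.04 and 1.69 CPM. Again no library labelled cKO reached the lowest one labelled Control, and the log2 fold change was -2.14 (SE 0.20), 4.41 times lower.

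D030068K23Rik fell as well, with the smallest relative spread of the 4 among neuron RNA libraries labelled Control (SD of 5.22% of the mean). Those 3 held 5.004, 5.54 and 5.40 CPM, and the 3 labelled cKO held 1.958, 1.56 and 1.85 CPM. The means were 5.31 ± 0.278 and 1.79 ± 0.206 CPM (SD, n = 3 each), no library overlapped, and the log2 fold change came to -1.58 (SE 0.13), 2.995 times lower. In whole CA RNA the lowest, median and highest libraries labelled Control held 2.82, 3.31 and 4.13 CPM, and those labelled cKO 0.723, 0.837 and 1.07 CPM. The log2 fold change there was -1.95 (SE 0.18), 3.87 times lower, on 11 to 20 reads per library labelled cKO. Whole CA libraries came from different sequencing lanes, per their names: replicates 1 to 3 alone gave -1.71 (SE 0.28) and replicates 4 to 6 alone -2.16 (SE 0.26).

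Gm37120 was higher in neuron RNA labelled cKO. The 3 libraries labelled Control held 1.39, 1.14 and 1.26 CPM, and those labelled cKO held 3.68, 2.66 and 2.69 CPM. All libraries labelled cKO lay above all labelled Control, and replicate 1 labelled cKO was the highest of them. The means were 1.26 ± 0.122 and 3.01 ± 0.578 CPM (SD, n = 3 each), a log2 fold change of 1.24 (SE 0.18), 2.37 times higher. The transcript was, in whole CA RNA, near the limit of detection, with 2 to 8 reads in each library labelled Control and 6 to 13 in each labelled cKO. The lowest, median and highest were 0.113, 0.353 and 0.470 CPM against 0.308, 0.580 and 0.759 CPM, so the groups overlapped. It did not pass the filter on low counts there. Fitted without the filter the log2 fold change was 0.68 (SE 0.41), with 1.08 (SE 0.60) in replicates 1 to 3 and 0.27 (SE 0.61) in replicates 4 to 6.

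Gm29681 was likewise higher in neuron RNA labelled cKO. The libraries labelled Control held 1.47, 1.35 and 1.52 CPM and those labelled cKO 3.66, 2.77 and 2.92 CPM. The means were 1.45 ± 0.0861 and 3.12 ± 0.476 CPM (SD, n = 3 each), with a log2 fold change of 1.10 (SE 0.16), 2.14 times higher and again with no overlap. The lowest, median and highest whole CA values were 0.116, 0.297 and 0.470 CPM in libraries labelled Control and 0.460, 0.603 and 0.636 CPM in those labelled cKO, from 2 to 7 and 7 to 12 reads. Only the highest library labelled Control reached into the range of those labelled cKO. Without the filter, which it did not pass, the log2 fold change was 0.98 (SE 0.41), and it was set mainly by replicates 4 to 6, at 1.95 (SE 0.70), against 0.31 (SE 0.59) in replicates 1 to 3.

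Since the transcripts were chosen for these changes, no test is given for them and nothing is read from their number. As background, 23.6% of all 19622 genes tested in neuron RNA and 3.21% of 15362 in whole CA RNA had no overlap between genotypes in CPM. By edgeR's quasi-likelihood test, 2.75% of genes were called in neuron RNA and the share for whole CA RNA was 4.17%, at a Benjamini-Hochberg adjusted p under 0.05. Fewer cells that contain a transcript and less of it per cell cannot be told apart in bulk RNA. Markers of dentate granule cells, neurons of the neighbouring dentate gyrus, moved with the neuron RNA genotypes: their summed level was 115 to 150 CPM in libraries labelled cKO and 153 to 179 CPM in those labelled Control. Of these 4 markers 3 were called lower (C1ql2, Dsp and Tdo2), with a median log2 fold change of -0.73. In whole CA RNA the median of the 4 was -0.65 and Dsp was called lower, while the sums overlapped at 29.97 to 73.6 and 54.5 to 83.1 CPM. The summed microglial markers, 229 to 255 CPM in libraries labelled cKO against 260 to 316 CPM, moved with the whole CA genotypes, where 1 of 5 (Cx3cr1) was called lower. Of the other lists in whole CA RNA, the astrocyte marker Aqp4 and the neuronal marker Map2 were called lower, each 1 of its list. The part of these markers in the values of the 4 transcripts was not tested.

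**Figure D1:**
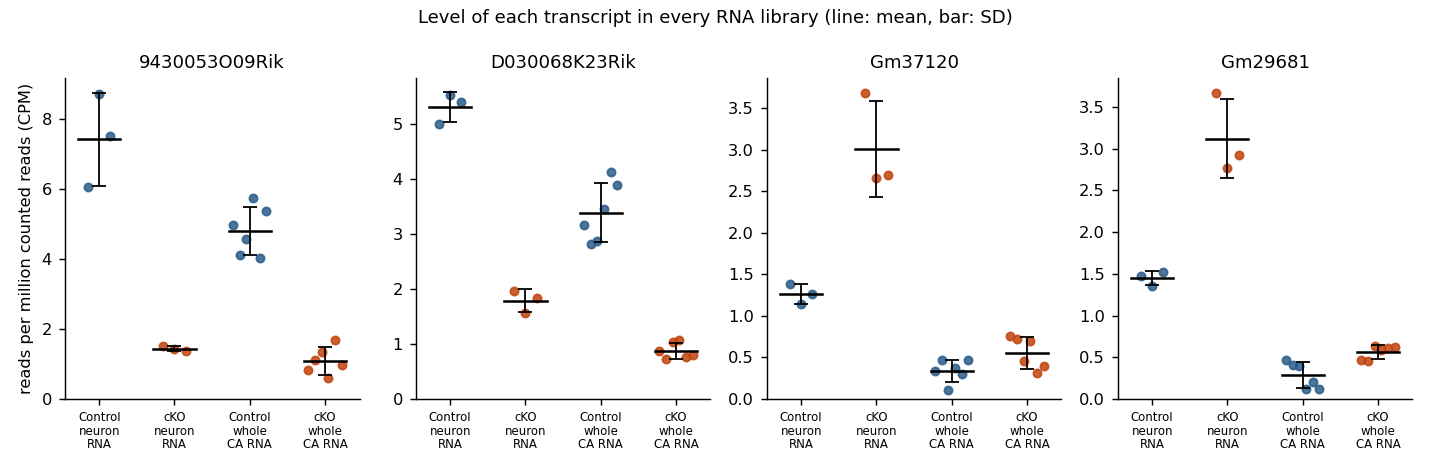
CPM (linear axis from 0) of each transcript in every RNA library, with the mean as a line and the SD as a bar (neuron RNA: 3 libraries per group, whole CA RNA: 6). Libraries labelled cKO lie below those labelled Control for 9430053O09Rik and D030068K23Rik in both materials, and above them for Gm37120 and Gm29681 in neuron RNA, while in whole CA RNA the groups of the last 2 overlap.

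The genotype effect was set side by side in both materials for each transcript. The neuron effect minus the whole CA effect, on the log2 scale, was -0.22 (SE 0.28) for 9430053O09Rik, which is smaller than its error. The difference was 0.38 (SE 0.23) for D030068K23Rik, with an approximate 95% interval of -0.07 to 0.84, so its fall was numerically larger in whole CA RNA. For Gm37120 the difference was 0.57 (SE 0.41) and for Gm29681 0.11 (SE 0.41), both within wide intervals of -0.23 to 1.37 and -0.69 to 0.91. These effects were used in choosing the transcripts and are given without a test.

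The Control libraries were 1 arm of every difference the transcripts were chosen for, so their levels in the 2 materials are given as a description, with no test. On the scale of the fit, which is relative to all other genes, the log2 fold change of neuron RNA over whole CA RNA (n = 3 and 6) was 0.47 for 9430053O09Rik (SE 0.15) and 0.48 for D030068K23Rik (SE 0.15). Against whole CA replicates 4 to 6 alone these values were 0.34 and 0.25. For Gm29681 the log2 fold change was 2.19 (SE 0.31), from 1.45 CPM in neurons and 0.286 CPM in whole CA, and for Gm37120 it was 1.72 (SE 0.28), from 1.26 and 0.342 CPM. Both rest on 2 to 8 reads in each whole CA library labelled Control and 71 to 105 in each neuron library. These 2 transcripts did not pass the count filter in whole CA RNA alone and entered this comparison through their neuron counts. The value of Gm29681 also differed between lanes, at 1.58 against whole CA replicates 1 to 3 and 3.03 against replicates 4 to 6. As background, 83.6% of 16859 genes were called in this comparison and 43.6% were called higher in neuron RNA. Material, sequencing run and the way the RNA was isolated cannot be told apart here.

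The order of the 4 groups differed between the pairs. For both RIKEN transcripts the highest level was in Control neurons, then Control whole CA, then neurons labelled cKO, then whole CA labelled cKO. For 9430053O09Rik the last 2 of these overlapped, at 1.36 to 1.52 and 0.590 to 1.69 CPM. For D030068K23Rik no neighbouring groups in this order overlapped. For both Gm transcripts neurons labelled cKO were highest, then Control neurons, then whole CA labelled cKO and last whole CA Control, and only the 2 whole CA groups overlapped. These orders hold the genotype differences that the 4 were chosen for. The share of all genes whose groups separate in this way was not counted, so nothing is read from it.

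Genes next to the 4 transcripts were compared, being every overlapping gene and the nearest 2 on each side in RefSeq, 18 in all. Of these, 9 passed the count filter of neuron RNA and 6 that of whole CA RNA, and 1 was called, in both. Mir99ahg, in which 9430053O09Rik lies, held 12.1, 20.3 and 24.5 CPM in neuron RNA labelled Control and 15.6, 16.4 and 16.7 CPM in that labelled cKO, in ascending order. Its groups overlapped, and its log2 fold change was -0.24 in neuron RNA (SE 0.21, edgeR adjusted p = 0.597) and -0.23 in whole CA RNA (SE 0.18, edgeR adjusted p = 0.614). Usp25, a ubiquitin protease gene 277 kb away, gave 0.13 (SE 0.10) and 0.06 (SE 0.08), with edgeR adjusted p of 0.567 and 0.797. On the D030068K23Rik side only Gm1943 and Pmfbp1 passed the filter, in neuron RNA alone, at -0.20 (SE 0.24, edgeR adjusted p = 0.693) and -0.03 (SE 0.27, edgeR adjusted p = 0.967).

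Gm37120 lay between neighbours that were not called. Cdk18, a cyclin-dependent kinase gene, gave a log2 fold change of -0.23 in neuron RNA (SE 0.11, edgeR adjusted p = 0.328) and -0.18 in whole CA RNA (SE 0.07, edgeR adjusted p = 0.205). Mfsd4a, which encodes a membrane transporter, gave -0.14 (SE 0.08, edgeR adjusted p = 0.445) and -0.03 (SE 0.07, edgeR adjusted p = 0.904). Gm29681 lay beside the 1 neighbour that was called, and that gene fell. Galnt17, an N-acetylgalactosaminyltransferase gene 84.1 kb away, held 202 to 245 CPM in neuron RNA labelled Control and 138 to 161 CPM in that labelled cKO. Its log2 fold change was -0.62 in neuron RNA (SE 0.10, edgeR adjusted p = 0.0132) and -0.42 in whole CA RNA (SE 0.05, edgeR adjusted p = 4.16e-05), opposite in sign to Gm29681. The neuron RNA call was lost without cKO replicate 1 (-0.60, edgeR adjusted p = 0.0859) or cKO replicate 2 (-0.57, edgeR adjusted p = 0.0704). On the other side, Auts2, a gene of neuronal development, gave 0.03 (SE 0.10, edgeR adjusted p = 0.912) and 0.00 (SE 0.10, edgeR adjusted p = 0.995).

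**Figure D2:**
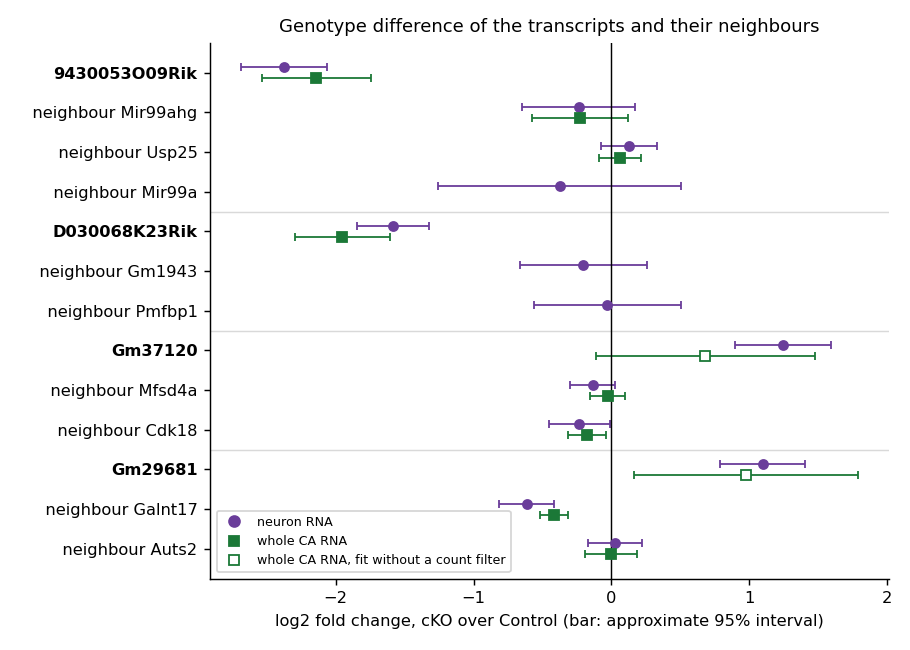
Log2 fold change of libraries labelled cKO over Control for the 4 transcripts (bold) and their tested neighbours, with approximate 95% intervals as bars. Circles are neuron RNA and squares whole CA RNA, open where the transcript did not pass the count filter. Galnt17 lies left of 0, at -0.62 and -0.42, beside Gm29681 on the right.

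Histone peaks are a different readout from the RNA counts that the transcripts were chosen on, and only 9430053O09Rik had peaks of all 4 marks at its start. Within 2 kb either side of the starts of D030068K23Rik and Gm29681 no library of any mark had a peak. At Gm37120 the only peaks were of H3K27ac, in 1 library of each genotype. A start was tested where at least 3 libraries of a mark had a peak, which left 4 tests, all at 9430053O09Rik, with p-values not adjusted for that number. The measure was the number of bases covered by peaks in the window of 4001 bp, compared by exact permutation of the libraries (two-sided), whose smallest possible p is 0.0286 for these group sizes.

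At the 9430053O09Rik start, H3K4me3 peaks covered 2419 ± 38.1 bp in libraries labelled cKO and 2653 ± 110 bp in those labelled Control (SD, n = 4 each, exact permutation p = 0.0286). The libraries did not overlap, but this was so in the same direction at 18.7% of 9695 starts with H3K4me3 peaks. H3K4me1 went the other way, from 514 to 2601 bp in libraries labelled Control to 2882 to 3539 bp in those labelled cKO. Its means were 1790 ± 893 and 3079 ± 309 bp (SD, n = 4 each, exact permutation p = 0.0286), and 6.09% of 12816 starts were higher without overlap. Within 1 kb of the start the H3K4me1 groups overlapped (difference 381 bp, exact permutation p = 0.314). H3K27ac covered 2866 ± 45.1 bp in 4 libraries labelled cKO and 2451 ± 410 bp in 3 labelled Control (exact permutation p = 0.0286), with 3.12% of 10270 starts higher without overlap. The H3K27ac peaks of Control replicate 1 were broken into short pieces, and without that library the difference was 182.5 bp. H3K9ac covered 2466 ± 42.2 and 2571 ± 156 bp (n = 3 and 4, exact permutation p = 0.343). Leaving out any 1 library labelled cKO raised the exact permutation p to 0.0571 for H3K4me3 and for H3K4me1, with the same direction.

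The length of the longest peak at the start was added as a measure after the peak lists were seen, so its p-values belong to a measure picked on these peaks. It separated the genotypes for H3K4me3, H3K4me1 and H3K9ac, while H3K27ac, which had not overlapped by covered bases, overlapped by this measure. The longest H3K4me3 peak at the 9430053O09Rik start was 5973, 6126, 5903 and 6446 bp long in the 4 libraries labelled Control. In the 4 labelled cKO it was 3434, 3489, 4318 and 4884 bp long. Every peak was shorter in libraries labelled cKO, 4031 ± 698 against 6112 ± 241 bp (SD, n = 4 each, exact permutation p = 0.0286), and the same held at 22% of starts with H3K4me3 peaks. Gaps of under 1 kb split the peak in all libraries labelled cKO. With peaks closer than 1 kb joined, the lengths were 5549 ± 97.8 and 6865 ± 532 bp (exact permutation p = 0.0286), beside 26.9% of starts. Without Control replicate 4 the unjoined difference was -1969 bp (exact permutation p = 0.0571). The 2 inner starts of the gene, at positions 77420617 and 77420382 of chr16, lay under the H3K4me3 peak in all 8 libraries.

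H3K4me1 was called over the same stretch in the libraries labelled cKO. Its longest peak at the start was 7662, 6554, 6259 and 9285 bp long there. In the libraries labelled Control it was 2015, 2601, 2029 and 514 bp long, with a second peak 4670 to 5682 bp further into the gene and no call between them. The means were 7440 ± 1370 and 1790 ± 893 bp (SD, n = 4 each, exact permutation p = 0.0286), and 4.15% of 12816 starts were longer without overlap. These H3K4me1 peaks were low, with a fold enrichment of 2.95 to 3.22 in libraries labelled cKO and 2.49 to 2.78 in those labelled Control. Their −log10 q was 2.86 to 3.68 and 1.36 to 1.99, where peaks were called at a q-value cutoff of 0.1. Whether signal just under that cutoff lay between the split peaks was not tested. The longest H3K9ac peak was 3875 ± 667 bp in 3 libraries labelled cKO and 5456 ± 545 bp in 4 labelled Control (exact permutation p = 0.0286, beside 9.88% of starts), and with close peaks joined the groups overlapped (exact permutation p = 0.429). The longest H3K27ac peak was 6291 ± 270 and 4572 ± 2798 bp (exact permutation p = 0.143).

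**Figure D3:**
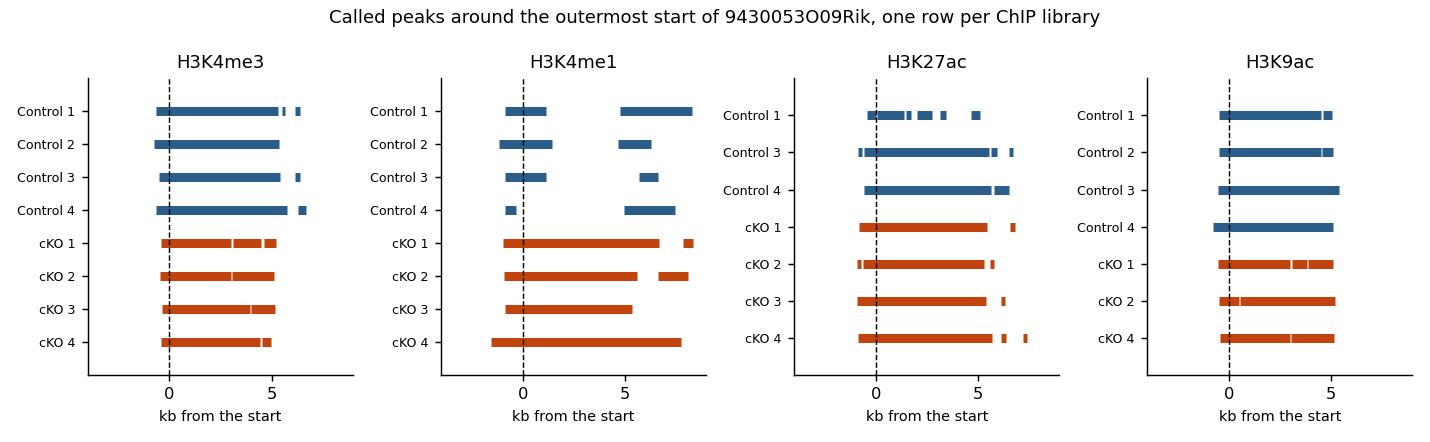
Called peaks of 4 histone marks around the outermost start of 9430053O09Rik (dashed line at 0, distance in kb in the direction of transcription), 1 row per ChIP library, Control in blue and cKO in orange. H3K4me3 runs unbroken for 5903 to 6446 bp in every library labelled Control, and H3K4me1 is called across the start for 6259 to 9285 bp in every library labelled cKO.

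D030068K23Rik had no peak at its own start, but peaks lay near its other end, at the start of 4922502B01Rik, 174.5 kb downstream. The longest H3K4me3 peak there was 5026, 5103, 5143 and 5279 bp long in libraries labelled Control. It was 1525, 2284, 4186 and 4644 bp long in those labelled cKO, shorter in all 4 (3160 ± 1494 against 5138 ± 106 bp, SD, n = 4 each, exact permutation p = 0.0286), a direction seen without overlap at 22% of starts. With peaks closer than 1 kb joined it was 4777 ± 193 and 6752 ± 108 bp (exact permutation p = 0.0286, beside 26.9% of starts). Without any 1 of the Control libraries the unjoined difference lay between -2015 and -1931 bp (exact permutation p = 0.0857). The longest H3K9ac peak was 813, 1322 and 1087 bp long in libraries labelled cKO and 3928, 3910, 3953 and 2827 bp in those labelled Control (exact permutation p = 0.0286, beside 9.88% of starts). Joining close peaks brought these groups into overlap (4072 ± 541 and 4537 ± 397 bp, exact permutation p = 0.229). H3K4me1 was 3654 ± 1645 and 1415 ± 678 bp (exact permutation p = 0.0571), and with close peaks joined 5546 ± 785 and 1415 ± 678 bp (exact permutation p = 0.0286, beside 4.26% of starts). H3K27ac overlapped (2171 ± 788 and 2488 ± 1001 bp, exact permutation p = 0.686). In all, 16 comparisons of the longest peak were made at the 2 starts, 8 with peaks as called and 8 with close peaks joined, and their p-values are not adjusted for that number. This start was singled out after its peaks were seen.

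**Figure D4:**
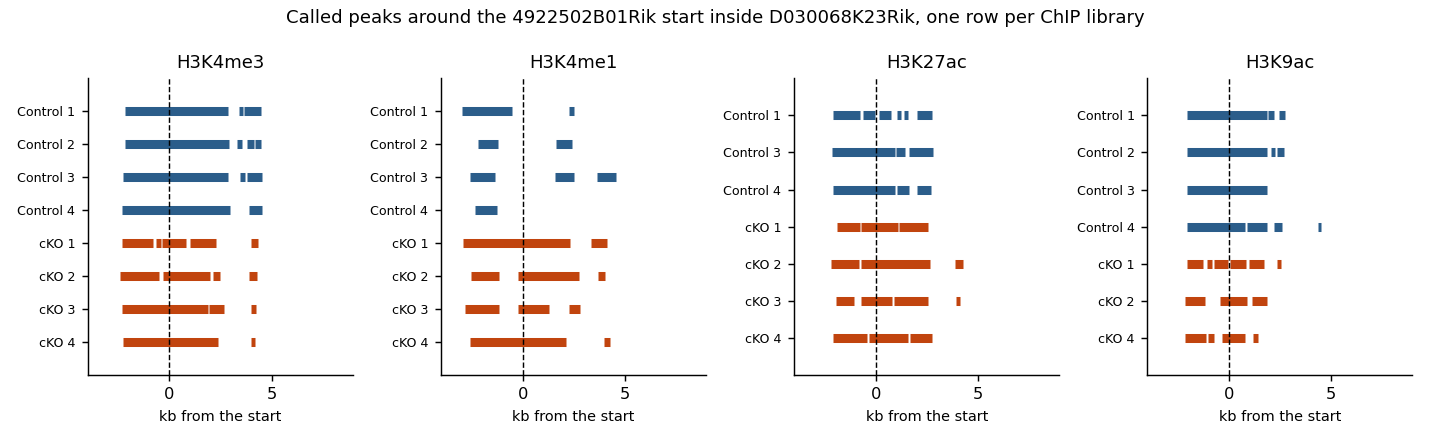
Called peaks of 4 histone marks around the 4922502B01Rik start inside D030068K23Rik (dashed line at 0, distance in kb in the direction of 4922502B01Rik transcription), 1 row per ChIP library, Control in blue and cKO in orange. The H3K4me3 peak is unbroken over 5026 to 5279 bp in libraries labelled Control and 1525 to 4644 bp at most in those labelled cKO.

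Over the whole genes with 2 kb either side, a window also added after the peak lists were seen, 9 comparisons could be made. Their p-values are not adjusted for that number. On 9430053O09Rik H3K27ac covered 16913 ± 840 bp in libraries labelled cKO and 10834 ± 4105 bp in those labelled Control (SD, n = 4 and 3, exact permutation p = 0.0286, beside 4.15% of 12376 genes), a difference of 6078 bp that was 3736 bp without Control replicate 1 (exact permutation p = 0.0667). H3K4me3 covered 7056 ± 216 and 7872 ± 477 bp (n = 4 each, exact permutation p = 0.0286, beside 20.2% of 12083 genes). With 1 library left out this exact permutation p rose in 5 of 8 fits, among them to 0.0571 without Control replicate 4. The H3K4me3 difference lay between -948.5 and -601.8 bp over those 8 fits. H3K4me1 covered 19222 ± 1661 and 13462 ± 2377 bp (n = 4 each, exact permutation p = 0.0571). The D030068K23Rik window holds the 4922502B01Rik start, so its values include the peaks described there and are not a separate result. On D030068K23Rik H3K4me1 covered 13366 ± 1457 and 9083 ± 1185 bp (n = 4 each, exact permutation p = 0.0286, beside 6.04% of 15135 genes, and 0.0571 without Control replicate 4). H3K27ac there covered 5438 ± 274 and 4391 ± 431 bp (n = 4 and 3, exact permutation p = 0.0286, beside 4.15% of genes). Its difference of 1047 bp lay between 803.5 and 1214.5 bp with any 1 library left out, at exact permutation p of 0.0667 to 0.1, the smallest those group sizes allow, and was 689 bp over peaks with a −log10 q of at least 5 (exact permutation p = 0.2). H3K4me3 and H3K9ac on D030068K23Rik overlapped between genotypes, with exact permutation p of 0.314 and 0.0857, as did H3K9ac on 9430053O09Rik (exact permutation p = 0.114). On both Gm genes a few peaks of at most 677 bp in sum were found, and H3K4me1 on Gm29681 did not differ beyond its spread (264 ± 328 and 139 ± 279 bp, exact permutation p = 0.714). The file headers name 1 shared input per genotype, so input and genotype cannot be told apart in any of the peak comparisons.

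Among transcripts with RIKEN or Gm symbols, 4452 were tested in neuron RNA, of which 60 were called lower and 52 higher. That balance turned with the method, to 72 lower and 93 higher with DESeq2, and to 78 lower and 82 higher among 14071 without the count filter. By the edgeR fit with the filter their median log2 fold change was 0.19, against 0.02 for all genes tested, and 2.52% were called, against 2.75% of all genes. 9430053O09Rik stood in place 7 and D030068K23Rik in place 27 from the lowest fold change. Gm37120 stood in place 159 and Gm29681 in place 214 from the highest, behind many transcripts of lower counts. Among called transcripts alone those places were 7, 24, 9 and 12. Whole CA RNA had 1493 such transcripts tested, 39 lower (2.61%, against 2.79% of all genes) and 17 higher (1.14%, against 1.38%). Their median was 0.03 against 0.00 for all genes, and 9430053O09Rik and D030068K23Rik took places 3 and 4 from the lowest. In the Control comparison of materials the RIKEN and Gm transcripts had a median of 1.45 towards neuron RNA, against 0.07 for all genes, and 69.8% of them were called higher there, against 43.6% of all genes. Those shares depended on the filter, which a transcript of low count could pass through either material. Without it the medians were 1.22 and 0.48, and 28.2% of 12599 RIKEN and Gm transcripts were called higher, against 32.1% of all genes. Gm29681 (2.19) and Gm37120 (1.72) lay above that median and both RIKEN transcripts (0.47 and 0.48) below it. The places in the genotype comparisons follow from the choice of the 4 and are given as description.

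**Figure D5:**
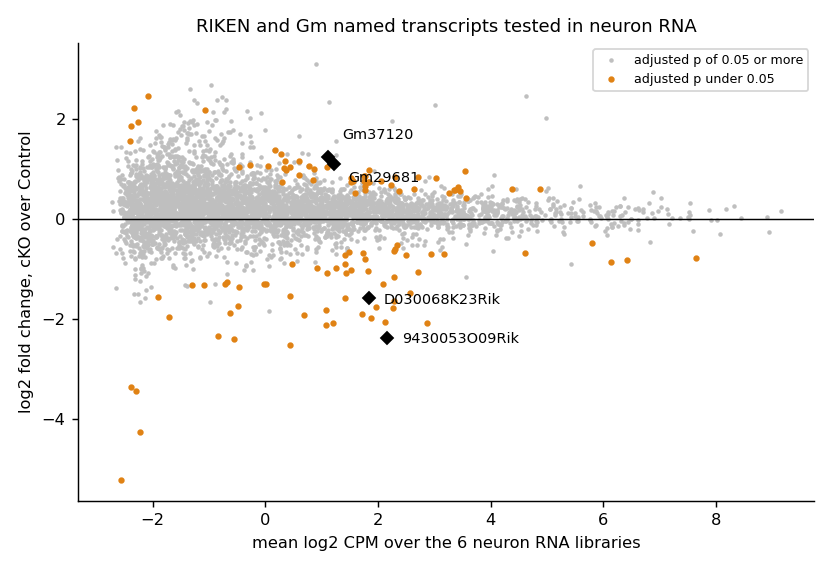
Log2 fold change of libraries labelled cKO over Control against the mean log2 CPM for the 4452 RIKEN and Gm named transcripts tested in neuron RNA, those with an edgeR adjusted p under 0.05 in orange and the 4 transcripts as black diamonds. The 4 lie at percentiles 70.8 to 82.4 of level among those plotted, with fold changes of -2.37, -1.58, 1.24 and 1.10, and larger folds are mostly of transcripts with lower counts.

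The genes most alike in pattern were sought by the smallest root mean square difference of log2 CPM over the 18 RNA libraries, each gene centred within each material. For 9430053O09Rik these were Kctd4, a potassium channel tetramerisation domain gene (0.28), Neurod6, a transcription factor gene of pyramidal neurons (0.32), and Dcn, which encodes the proteoglycan decorin (0.40), out of 14966 genes. The own spread of 9430053O09Rik on that scale was 1.15. Kctd4 fell by 2.56 in neuron RNA and by 2.27 in whole CA RNA on the log2 scale. For D030068K23Rik they were Htr1a, a serotonin receptor gene (0.20), the RIKEN transcript 4921539H07Rik (0.20) and Lgi1, which encodes a secreted synaptic protein (0.28), beside an own spread of 0.91. Htr1a had log2 fold changes of -1.46 and -1.64.

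Both Gm transcripts matched other genes less closely in relation to their own spread. They had 2 to 13 reads in each whole CA library and did not pass the count filter there, while the genes compared were tested in both materials. The part of these low counts in the match was not tested. For Gm37120, with an own spread of 0.60, the genes most alike were the non-coding RNA genes Dalir (0.37) and 2700046G09Rik (0.39) and Gm30238 (0.40). For Gm29681, with an own spread of 0.64, they were Otogl (0.37), the spectrin gene Sptbn5 (0.39) and the sulfotransferase gene Sult5a1 (0.39). Sptbn5 had log2 fold changes of 1.05 (neuron RNA) and 1.15 (whole CA RNA). Between the 4 themselves the difference was 0.45 for both RIKEN transcripts and 0.69 for both Gm transcripts, and 1.36 to 1.69 across the pairs. These patterns hold the genotype difference that the 4 were chosen for, and all values share the same libraries.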

How the data were processed

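RNA-seq of CA neurons and whole CA tissue and ChIP-seq peak lists of CA neurons were used. The RNA files as deposited hold a whole-number read count per Ensembl gene for each library. The aligner, the counter, the strand setting and the annotation of these counts are not given in the sources used here. The RNA kit was TruSeq RNA v2, per the labels' protocols. The deposited peak lists, 1 per library, give each peak's length, its fold enrichment (a ratio) and its −log10 q-value. Peaks were called against 1 input per genotype with MACS 2.1.0.20140616, or 2.1.1.20160309 for H3K4me3, at a q-value cutoff of 0.1, per the file headers. The build is mm10 (GRCm38) and SAMtools is named, per the submitters' processing notes. ChIP libraries held 24.4 to 41.6 M tags, per the file headers.

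Symbols were matched to 99.3% and 98.9% of the IDs of neuron and whole CA RNA. The members, gene lists and tests were chosen with earlier results of these data known. Counts were fitted over all genes with edgeR 4.0.16 (TMM, filterByExpr, quasi-likelihood test), in neuron RNA, in whole CA RNA, in Control libraries of both, and in all 18 libraries for the difference of effects. The members' values in the comparison of Control libraries, planned as a test, are given as a description because the choice of members used those libraries. The threshold for a call was 0.05 after Benjamini-Hochberg adjustment. The fits were tested on simulated data. Peaks were merged within a library and placed at RefSeq starts (GRCm38.p6, 19826 genes with a start), and the covered length was compared by exact permutation of libraries. A Benjamini-Hochberg adjustment over members and marks was planned for these p-values and is not given. Background shares are of starts or genes with a peak of that mark in any library, a looser rule than that for the tests.

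The genes named are the 4 transcripts, Setd1b, the overlapping genes and nearest 2 on each side, and the 3 most alike in pattern per transcript, with log2 CPM at a prior count of 2. 4922502B01Rik was singled out after its peaks were seen. Alternatives were DESeq2 1.42.0, RLE factors or plain library size for scaling, no filter or a mean count of 10 for filtering, a threshold of 0.1, single lanes, lane as a covariate, other windows, a −log10 q of at least 5, a replicate block and leaving out each library. Fits without a filter in 1 lane, whole-gene windows, longest peaks and joined peaks were added after seeing the data.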

Additional observations from a re-analysis of the deposited data

Results flagged for a closer look

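In groups of 4 to 10 libraries the highest or lowest value was compared with the others by Dixon's test, which flags about 1 in 20 groups by chance. Among 44 groups 9 values stood apart, all of them peak lengths, and several groups hold the same peak in different measures. At the 9430053O09Rik start, cKO replicate 4 had 3539 bp under H3K4me1 peaks within 2 kb, the most of its group. Over the whole of 9430053O09Rik, cKO replicate 3 had 16734 bp of H3K4me1, the least of its group. At 4922502B01Rik the longest H3K27ac peak of cKO replicate 2, 3347 bp, and the longest H3K9ac peak of Control replicate 4, 2827 bp, stood apart from their groups. At the Gm genes the flagged library was the only one of its group with a peak: H3K27ac of cKO replicate 2 near Gm37120 (32 bp inside the 2 kb window and inside the whole-gene window, from a peak of 1397 bp), H3K4me1 of cKO replicate 1 on Gm37120 (475 bp) and H3K4me1 of Control replicate 1 on Gm29681 (557 bp). No RNA value of the 4 transcripts stood apart in the whole CA groups of 6, and the groups of 3 in neuron RNA were not tested.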

How the results depend on the processing

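In neuron RNA the 4 transcripts kept the sign of their log2 fold change under every alternative run, with ranges over left-out libraries of -2.50 to -2.24 for 9430053O09Rik, -1.66 to -1.49 for D030068K23Rik, 1.06 to 1.32 for Gm37120 and 0.96 to 1.17 for Gm29681. Single lanes of whole CA RNA gave -1.71 for D030068K23Rik in replicates 1 to 3, with and without the filter, and 0.31 and 1.95 for Gm29681 in replicates 1 to 3 and 4 to 6 without it. In the comparison of materials 9430053O09Rik and D030068K23Rik moved to 0.34 and 0.25 against whole CA replicates 4 to 6 alone. Leaving out 1 library gave 0.35, without neuron Control replicate 2, to 0.60 for 9430053O09Rik, and library size scaling alone moved the median of all genes by 0.16. The number of genes called in neuron RNA, 539, became 930 at an adjusted p under 0.1, 840 with DESeq2 and 207 (without cKO replicate 1), 259 (without cKO replicate 2), 268 (without Control replicate 3), 311 (without Control replicate 2) and up to 482 with 1 library left out. The 640 of whole CA RNA became 207 and 224 in single lanes. For the difference between materials 28 became 69 without a filter, 75 with DESeq2 and 18 (without neuron cKO replicate 2 or neuron Control replicate 1) to 32 with 1 library left out.

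Replicate numbers did not pair the RNA libraries: same-numbered libraries correlated at -0.06 to 0.29 (neuron RNA) and -0.06 to 0.20 (whole CA RNA). The replicate block called 327 genes in neuron RNA. At the 9430053O09Rik start the replicate block gave differences of -233.25 bp for H3K4me3, 1288.75 bp for H3K4me1 and 427 bp for H3K27ac, with exact sign-flip p of 0.125, 0.125 and 0.25, the smallest that 4 and 3 pairs allow. The H3K4me1 difference within 1 kb was 381 bp. With 1 library left out the differences were -281 to -193 bp for H3K4me3, 864 to 1559 bp for H3K4me1 and 182.5 to 573 bp for H3K27ac, the last with exact permutation p no lower than 0.0667, where fewer libraries raise the smallest p. H3K4me1 on Gm29681 ranged from -13.25 to 263.75 bp. No H3K4me1 peak at the 9430053O09Rik start reached a −log10 q of 5, so that alternative gave no value. Few reads (2 to 13 per library) limit both Gm transcripts in whole CA RNA, and peak length does not measure signal height. The fold enrichment listed for the longest H3K4me3 peak at the 9430053O09Rik start was 24.8 to 32.3 in libraries labelled Control. It was 12.9 to 17.5 in those labelled cKO. This measure was not tested and its share over all starts was not counted, so nothing is read from it. The longest H3K9ac peaks kept their direction with 1 library left out, at exact permutation p of 0.0667 to 0.133 over both starts. The causes of these shifts were not tested, apart from the smaller number of libraries.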
